A study of Mus musculus with 262 samples.

Results

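The genes that make, break down and read the second messenger cyclic AMP were followed by symbol through every table of this study of the mouse renal collecting duct. They are 37 genes: 10 adenylyl cyclases (Adcy1 to Adcy10), 18 phosphodiesterases, 2 catalytic subunits of protein kinase A (Prkaca and Prkacb), 4 regulatory subunits (Prkar1a, Prkar1b, Prkar2a and Prkar2b), the Gs alpha gene Gnas, and the cyclic AMP-responsive transcription factors Creb1 and Crem. All 37 were found among the 47069 genes of the TPM tables (TPM, a level scaled by transcript length to a fixed total) and among the 24111 genes of the read-count table.

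The study profiled polyadenylated RNA of kidney cells and tubules from male mice that were 2 months old, and the labels name no treatment. From C57BL/6 mice came 235 single cells, sorted with the lectin DBA, an antibody to c-Kit, both, or the lectin PNA, which the submitters assigned to 87 type A intercalated, 23 type B intercalated, 74 principal, 19 proximal tubule and 32 non-epithelial cells. The same strain gave 2 bulk samples sorted by c-Kit, 2 bulk samples sorted by DBA, 11 cortical collecting duct (CCD) tubules and 8 cortical thick ascending limb (cTAL) tubules dissected singly by hand. The strain Atp6v1b1GFP, named for a proton pump subunit of intercalated cells, gave 2 GFP-positive and 2 GFP-negative bulk samples. No animal is named for any sample, so p-values measure the spread between these samples, which may be partly technical, and each single-cell type was treated as 1 sample without a test.

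Cyclic AMP is made by adenylyl cyclases when a receptor coupled to Gs is occupied. In the collecting duct the best known such receptor is the vasopressin V2 receptor, whose signal reaches protein kinase A, which phosphorylates the water channel aquaporin-2 so that it moves to the apical membrane of principal cells. Phosphodiesterases hydrolyse cyclic AMP, cyclic GMP or both, and their families differ in regulation by calcium, cyclic GMP and phosphorylation. Intercalated cells, which secrete acid or bicarbonate, and thick ascending limb cells, which reabsorb salt, also respond to hormones that act through cyclic AMP.

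The fractions carried the markers of their labels with admixture. The summed level of 6 principal cell markers was 24841 to 46324 TPM in CCD and 748 to 1098 TPM in cTAL, and that of 4 thick ascending limb markers was 35.2 to 686 TPM in CCD and 33337 to 53193 TPM in cTAL. The c-Kit samples held more of the 5 type A markers (3550 to 3566 against 79.0 to 94.5 TPM) and of the 3 type B markers (636 to 671 against 104 to 124 TPM). The DBA samples held more of the principal markers (22391 to 25005 against 2593 to 3486 TPM). In GFP-positive samples the type A marker sum was higher (3586 to 8078 against 50.7 to 89.6 CPM), and so was the type B sum (921 to 1215 against 6.99 to 9.61 CPM). CPM is reads scaled by the normalized library size of each sample. Also higher in GFP-positive samples were 6 of 6 principal markers (1638 to 2086 against 466 to 542 CPM). The same held for 4 of 4 distal convoluted and connecting tubule markers (1173 to 1783 against 119 to 148 CPM). Thick ascending limb markers were present in both GFP fractions, at 9815 to 14693 and 8259 to 8566 CPM. CCD tubules also held distal convoluted and connecting tubule markers (258 to 609 against 0.16 to 15.5 TPM). The number of genes at 1 TPM or more ran from 7621 to 14004 among CCD and from 8094 to 12385 among cTAL tubules, lowest in the CCD tubule m2_CCD2. The 11 CCD tubules carry 7 and the 8 cTAL tubules 6 different m numbers in their names, whose meaning the labels do not give. CCD and cTAL tubules with 1 number deviated together weakly for m6 and m7, at correlations across genes of 0.16 and 0.14. For m1 to m4 they did not, at 0.02 to 0.04. Tubules with 1 number may share a source, and p-values over tubules may then be too small. In these bulk samples and tubules, fewer cells of a type and less RNA per cell cannot be told apart.

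Of the 37 genes, 25 reached the mean of 1 TPM needed for testing in tubules, 5 of them (Adcy1, Adcy5, Pde1b, Pde1c and Pde3b) with a mean below 1 TPM in either CCD or cTAL. Among these 25 genes, 9 differed between the segments at an adjusted p under 0.05 (limma), where 18.7% of all 13520 tested genes did. The 5 genes that passed through 1 segment are all among the 9, and of the other 20 tested genes 4 were called, a share near that of all genes. The 5 genes higher in CCD compare with 13.2% of all genes and the 4 higher in cTAL with 5.5% of all genes. The median difference was 0.34 for the 25 genes and 0.31 for all genes on the log2(TPM + 1) scale, CCD minus cTAL. After quantile normalization the median of all genes was -0.03 and the calls split into 1221 higher and 1244 lower in CCD in place of 1782 and 744. Between c-Kit and DBA samples 31 of the 37 genes were tested, 2 of them with a mean below 1 TPM in c-Kit, and 20 were called against 44.3% of 14341 genes. Of the 20 genes, 9 were higher in c-Kit (16.1% of all genes) and 11 were higher in DBA (28.1%). The all-gene calls split into 2315 and 4033, or 3055 and 3072 after quantile normalization, which moved the median of all genes from -0.11 to 0.02. Between GFP-positive and GFP-negative samples 35 genes passed edgeR's filter, 1 of them (Pde11a) with means below 1 CPM in both groups, and 17 were called against 32.6% of 15671 genes. Of the 17 genes, 12 were higher in GFP-positive (15.2% of all genes) and 5 were lower (17.3%). Where 1 of 2 bulk samples is left out below, the lone sample is assumed to vary like the other group. Calls gained or lost there rest on the spread of that group, which the fits moderate by the spread over all genes.

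**Figure D1:**
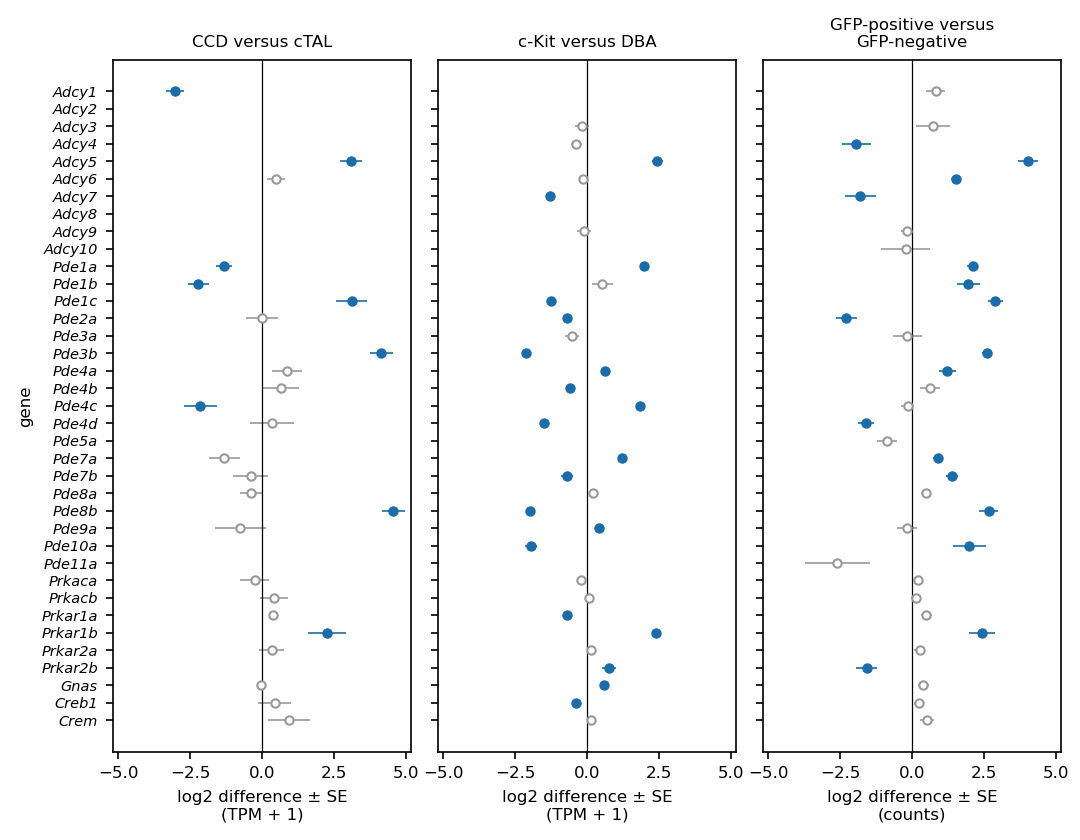
Differences in log2 units (horizontal axes, with standard errors) for each tested cyclic AMP gene (vertical axis) in the 3 comparisons; positive values are higher in CCD, c-Kit or GFP-positive samples, and filled points have an adjusted p under 0.05. The filled points number 9 of 25, 20 of 31 and 17 of 35 genes, and genes that were not tested have no point.

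Of the 10 adenylyl cyclases 3 were tested in tubules and 2 were called. Both called isoforms, Adcy5 and Adcy1, reached the filter only through the segment in which they were high. Adcy6 was present in every tubule, and beside it CCD tubules carried Adcy5 and cTAL tubules Adcy1. Adcy5, an isoform inhibited by calcium (gene ENSMUSG00000022840, chr16:35154877-35305738, plus strand, GRCm38), had 1.94, 8.50 and 20.3 TPM as its lowest, median and highest level in the 11 CCD tubules, and was listed at 0.00 to 0.01 TPM in the 8 cTAL tubules. Adcy1, an isoform stimulated by calcium and calmodulin (gene ENSMUSG00000020431, chr11:7063489-7178506, plus strand), had 4.70, 11.0 and 13.7 TPM in cTAL and 0.00, 0.01 and 1.91 TPM in CCD. For neither gene did the segments overlap, and 10 of 11 CCD tubules were below 1 TPM for Adcy1. The difference was 3.09 ± 0.38 (SE) for Adcy5 (adjusted p = 1.3e-06) and -3.03 ± 0.32 for Adcy1 (adjusted p = 1.2e-07). Adcy6, the isoform best known for vasopressin signalling in collecting duct, had 14.0 ± 4.7 TPM in CCD (SD, n = 11) and 10.1 ± 4.8 TPM in cTAL (n = 8). Its groups overlapped and its difference of 0.49 ± 0.32 did not pass the test (adjusted p = 0.34).

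As shares of the summed level of the 10 cyclases, which ran from 11.9 to 42.5 TPM in CCD and from 12.9 to 31.0 TPM in cTAL, Adcy6 made up 43.0% to 82.8% in CCD and 30.4% to 78.0% in cTAL. Adcy5 made up 16.3% to 48.6% in CCD with a median of 35.3%. Adcy1 made up 21.5% to 69.5% in cTAL with a median of 46.4%. The other 7 cyclases (Adcy2, Adcy3, Adcy4, Adcy7, Adcy8, Adcy9 and Adcy10) stayed below a mean of 1 TPM and were not tested, with Adcy9 reaching 3.81 TPM in 1 CCD tubule.

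**Figure D2:**
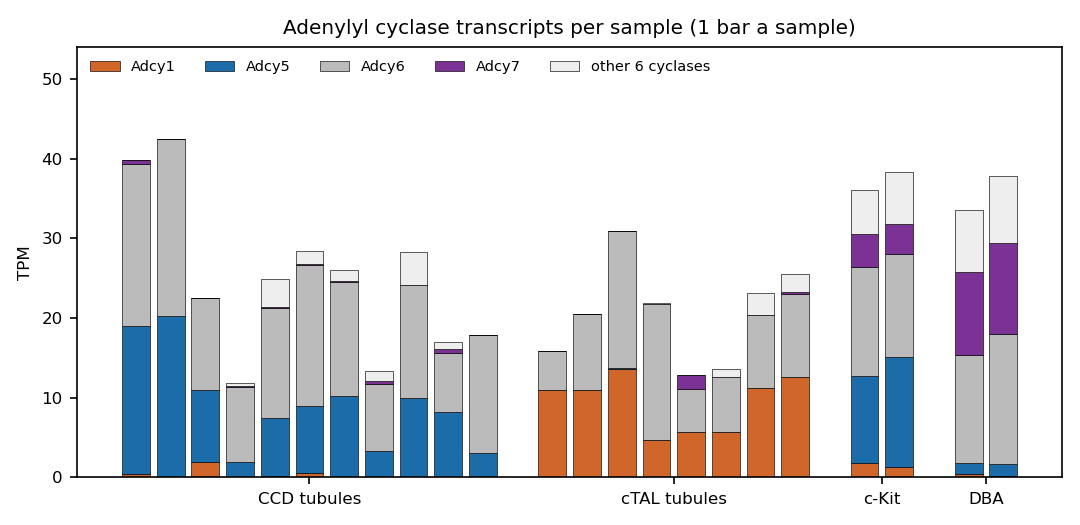
Adenylyl cyclase transcripts in each tubule and bulk sample: the vertical axis is the level in TPM from 0, each bar is 1 sample and the stacked parts are isoforms. The Adcy5 part is seen in CCD and c-Kit bars and the Adcy1 part in cTAL bars, while the Adcy6 part is in every bar.

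The promoter windows of the isoforms that separated CCD from cTAL are shown because the 2 genes had opposite patterns. Each runs from 250 bases before to 50 bases after the RefSeq start (GRCm38.p6), 5′ to 3′ on the plus strand, with the GC box GGGCGG or its reverse complement in capitals. Adcy5 is at chr16:35154614-35154913 and Adcy1 at chr11:7063183-7063482.
Adcy5: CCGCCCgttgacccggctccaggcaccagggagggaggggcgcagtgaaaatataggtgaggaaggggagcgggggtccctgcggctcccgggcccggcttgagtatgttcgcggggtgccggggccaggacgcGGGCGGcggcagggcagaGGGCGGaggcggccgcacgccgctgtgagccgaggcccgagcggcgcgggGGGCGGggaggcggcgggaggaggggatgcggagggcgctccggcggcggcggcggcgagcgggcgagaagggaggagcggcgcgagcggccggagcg
Adcy1: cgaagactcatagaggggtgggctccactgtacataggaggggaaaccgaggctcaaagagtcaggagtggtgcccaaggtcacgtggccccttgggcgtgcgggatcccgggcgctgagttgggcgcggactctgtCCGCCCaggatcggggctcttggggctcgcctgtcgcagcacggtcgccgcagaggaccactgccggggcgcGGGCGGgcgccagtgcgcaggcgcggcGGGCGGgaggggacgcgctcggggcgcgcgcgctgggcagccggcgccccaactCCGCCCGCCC
The Adcy5 window held 4 matches to the GC box and was 79.0% G or C, and the Adcy1 window held 5 matches, of which the last 2 overlap, and was 74.0% G or C. The 2 opposite genes therefore share this feature. The GC box was in 35.7% of all 32851 promoter windows of this length and in 30 of 70 windows of the cyclic AMP genes, and 30 of the 37 genes had a window.

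Sorted fractions placed Adcy5 on the c-Kit and GFP-positive side. It measured 10.9 and 13.9 TPM in the c-Kit samples and 1.29 and 1.58 TPM in the DBA samples, a difference of 2.45 ± 0.19 (adjusted p = 0.00013). In GFP-positive samples it had 20.9 and 30.9 CPM against 1.83 and 1.32 CPM in GFP-negative samples, and the difference was 4.03 ± 0.35 (adjusted p = 8.9e-05). With limma on the deposited RPKM values, which are reads per kilobase and library size, the Adcy5 difference was 2.35 with an adjusted p of 0.056. Adcy6 measured 13.7 and 12.9 TPM in c-Kit and 13.5 and 16.3 TPM in DBA samples, which overlap, and its difference of -0.15 ± 0.13 did not pass the test. In the GFP comparison Adcy6 was called, with 283 and 237 CPM in GFP-positive and 84.9 and 93.7 CPM in GFP-negative samples and a difference of 1.54 ± 0.18 (adjusted p = 0.00033). Adcy1 did not reach the filter between c-Kit (1.82 and 1.26 TPM) and DBA (0.47 and 0.13 TPM). With no filter it was called higher in c-Kit, at 0.97 (adjusted p = 0.043). It was also tested without DBA sample 1 (1.16) and without DBA sample 2 (0.78), and was called in neither fit. In GFP-positive samples Adcy1 had 92.9 and 40.7 CPM against 41.1 and 34.5 CPM, a difference of 0.82 with an adjusted p of 0.0996. GFP-positive sample 2 was below GFP-negative sample 1, so the groups overlapped and the Adcy1 difference rests mostly on GFP-positive sample 1. Without GFP-positive sample 2 the difference was 1.30. With the replicate number as a block it was 0.71 and was called (adjusted p = 0.028). DESeq2 also called it (0.82, adjusted p = 0.044).

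Adcy7 and Adcy4, isoforms that calcium does not stimulate, were on the other side. Adcy7 had 4.17 and 3.70 TPM in c-Kit and 10.5 and 11.4 TPM in DBA samples (difference -1.28 ± 0.15, adjusted p = 0.00076). In GFP-positive samples Adcy7 had 4.06 and 1.95 CPM and in GFP-negative samples 15.0 and 5.85 CPM, a difference of -1.80 ± 0.54 (adjusted p = 0.033). Adcy4 had 3.52 and 2.03 CPM in GFP-positive and 15.3 and 5.97 CPM in GFP-negative samples, a difference of -1.94 ± 0.51 (adjusted p = 0.021). The 2 calls did not hold without each sample or on RPKM. GFP-negative sample 1 was the high sample for both genes, and without it the differences were -0.97 for Adcy7 (adjusted p = 0.21) and -1.11 for Adcy4 (adjusted p = 0.14). Without GFP-positive sample 2 they were -1.36 (adjusted p = 0.14) and -1.59 (adjusted p = 0.092), and on RPKM values -1.14 (adjusted p = 0.47) and -1.29 (adjusted p = 0.34). Leukocyte and endothelial markers moved with these genes. The 6 leukocyte markers summed to 13181 to 13821 TPM in DBA and 4667 to 4776 TPM in c-Kit samples, and 5 of 6 were called higher in DBA. The 4 endothelial markers summed to 158 to 180.1 TPM in DBA and 109.5 to 121 TPM in c-Kit samples, with 2 of 4 called. In the GFP comparison 6 of 6 leukocyte and 4 of 4 endothelial markers were higher in GFP-negative samples, with sums of 546 to 1232 against 92.4 to 113 CPM and of 139.8 to 314 against 36.0 to 62.8 CPM. C1qa was at 0 in 1 GFP-positive sample. The part of these cells in the result was not tested. The other cyclases tested, Adcy3 and Adcy9 in both bulk comparisons, Adcy4 between c-Kit and DBA and Adcy10 in the GFP comparison, were not called. Adcy2 had 0 to 6 reads and Adcy8 0 to 23 reads in the GFP samples and neither was tested.

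Among single cells Adcy6 was the cyclase found most often in type A and principal cells. It reached 1 TPM, the level used here for detection, in 23 of 87 type A cells (26.4%, exact 95% interval 17.6% to 37.0%) and in 19 of 74 principal cells (25.7%, 16.2% to 37.2%), with means of 8.69 and 12.0 TPM. Adcy7 was detected in 14 of 32 non-epithelial cells (43.8%, 26.4% to 62.3%) and in 2 of 87 type A and 2 of 74 principal cells. Adcy5 was detected in 3 of 87 type A, 2 of 23 type B, 1 of 74 principal and 1 of 32 non-epithelial cells, and the 1 principal cell held 99.8% of the summed Adcy5 level of its type. Adcy1 was detected in 4 of 87 type A cells and in no other cell, and Adcy2 and Adcy8 in none of the 235 cells. The depth behind a TPM value is unknown and the intervals cover counting error only. The median number of genes at 1 TPM or more lay between 2704 and 3253 in the 5 types.

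Gnas, which encodes the alpha subunit of Gs that activates the cyclases, was the most abundant of the 37 genes in tubules and bulk TPM samples. It measured 793 ± 99 TPM in CCD (SD, n = 11) and 813 ± 142 TPM in cTAL (n = 8), and the difference of -0.03 ± 0.10 did not pass the test (adjusted p = 0.89). In c-Kit samples it had 1042 and 1063 TPM against 699 and 698 TPM in DBA samples, a difference of 0.59 ± 0.05 (adjusted p = 0.00027). In the GFP comparison it had 922 and 1019 CPM against 805 and 667 CPM and did not pass the test (0.40 ± 0.19, adjusted p = 0.15). Gnas was detected in 22 of 23 type B cells (95.7%) and 21 of 32 non-epithelial cells (65.6%), with the other 3 types between 80.5% and 84.2%, and its mean was highest in type B cells at 332 TPM. The antisense gene Nespas overlaps Gnas on the opposite strand, and 20 of the 37 genes overlap an annotated gene on the opposite strand. No source used here states how counting used strand, so reads of such pairs may be mixed.

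The phosphodiesterases held the largest differences between CCD and cTAL among the 37 genes. Pde8b, a cyclic AMP-specific enzyme with high affinity (chr13:95024454-95250336, minus strand), had 30.8, 53.2 and 132 TPM as lowest, median and highest level in CCD and 0.02, 1.15 and 5.90 TPM in cTAL, a difference of 4.58 ± 0.41 (adjusted p = 1.1e-08). Pde3b, a cyclic AMP-hydrolysing enzyme inhibited by cyclic GMP (chr7:114415281-114539251, plus strand), had 5.41, 23.9 and 37.9 TPM in CCD and 0.01, 0.045 and 1.79 TPM in cTAL, a difference of 4.16 ± 0.40 (adjusted p = 2.8e-08). Pde1c, a calcium- and calmodulin-stimulated enzyme (chr6:56069804-56569103, minus strand), had 0.78, 13.4 and 24.6 TPM in CCD and 0.00, 0.04 and 0.43 TPM in cTAL, a difference of 3.12 ± 0.54 (adjusted p = 0.00016). All CCD tubules were above all cTAL tubules for each of these 3 genes, though 2 CCD tubules were below 1 TPM for Pde1c. Pde3b and Pde1c reached the filter only through CCD. Its relatives Pde1a and Pde1b were on the opposite side.

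Pde1a (chr2:79834453-80129458, minus strand) was the most abundant phosphodiesterase in cTAL, at 438 ± 113 TPM (SD, n = 8) against 189 ± 73 TPM in CCD (n = 11). The difference was -1.31 ± 0.28 (adjusted p = 0.0015), and the CCD range of 37.8 to 328 TPM overlapped the cTAL range of 265 to 595 TPM. It made up 57.2% to 75.3% of the summed phosphodiesterase level in cTAL and 19.2% to 61.4% in CCD, the lowest share being that of tubule m2_CCD2, in which Pde8b made up 67.1%. Pde1b measured 0.40 to 12.0 TPM in cTAL and 0.00 to 0.99 TPM in CCD (difference -2.21 ± 0.37, adjusted p = 8.3e-05), overlapping in 1 cTAL tubule. It reached the filter only through cTAL. Pde4c, a cyclic AMP-specific enzyme (chr8:70723720-70751186, plus strand), had 78.1, 94.1 and 169 TPM in cTAL and 0.14, 31.8 and 63.8 TPM in CCD with no overlap (difference -2.14 ± 0.58, adjusted p = 0.011). Every cTAL tubule was thus above every CCD tubule for Pde4c. With 1 mean per m number and segment its difference was -2.31 and lost the call (adjusted p = 0.053), while the other 8 calls were kept.

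The 8 phosphodiesterases tested in tubules without a call were Pde2a, Pde4a, Pde4b, Pde4d, Pde7a, Pde7b, Pde8a and Pde9a. The largest difference among them was that of Pde7a, a cyclic AMP-specific enzyme, at -1.32 ± 0.54 (adjusted p = 0.097), and after quantile normalization it was -1.86 and called (adjusted p = 0.021). Pde10a was listed at 0 in all 8 cTAL tubules and ran up to 3.89 TPM in CCD but did not reach the 1 TPM mean. Without tubule m2_CCD2 it was tested and called, at 1.32 ± 0.33 (adjusted p = 0.0055). Pde3a, Pde5a and Pde11a were not tested in tubules either.

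**Figure D3:**
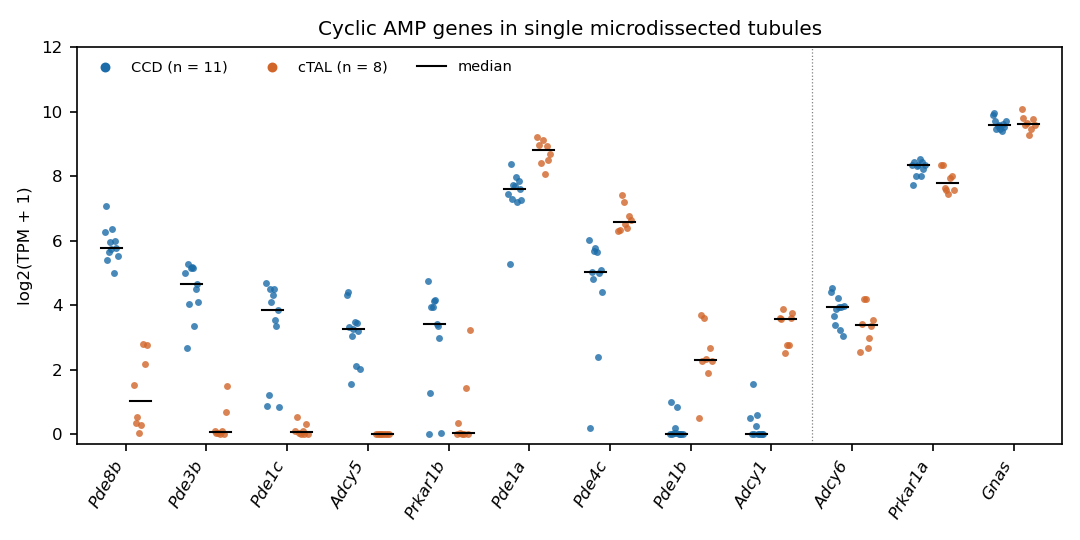
Levels of the 9 genes that differed between segments and of 3 abundant genes that did not (right of the dotted line) in each tubule: the vertical axis is log2(TPM + 1), blue points are the 11 CCD tubules, orange points the 8 cTAL tubules and bars are medians. Adcy5, Pde8b, Pde3b and Pde1c are higher in every CCD tubule, Adcy1 and Pde4c are higher in every cTAL tubule, and Gnas and Adcy6 overlap.

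Between c-Kit and DBA samples the phosphodiesterases split into a group high in c-Kit and a group high in DBA. Pde1a had 403 and 402 TPM in c-Kit and 101 and 99.1 TPM in DBA samples, a difference of 2.00 ± 0.06 (adjusted p = 3.7e-06). Pde4c had 82.4 and 85.7 against 21.2 and 23.7 TPM (1.86 ± 0.09, adjusted p = 1.8e-05). Pde7a had 34.2 and 34.7 against 14.1 and 14.5 TPM (1.21 ± 0.09, adjusted p = 0.00012). These 3 genes are given with sample values because they were called and their groups did not overlap, so that is no added result. Pde1a made up 59.5% to 59.8% of the summed phosphodiesterase level in c-Kit and 24.2% to 24.4% in DBA samples.

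The DBA samples were higher for the phosphodiesterases that were high in CCD tubules. Pde3b had 62.3 and 54.2 TPM in DBA and 14.3 and 11.2 TPM in c-Kit samples, a difference, c-Kit minus DBA, of -2.11 ± 0.14 (adjusted p = 6.2e-05). Pde8b had 74.5 and 71.4 against 19.9 and 15.5 TPM (-1.99 ± 0.12, adjusted p = 5.3e-05). Pde1c had 15.4 and 15.8 against 6.10 and 5.75 TPM (-1.26 ± 0.13, adjusted p = 0.00038). These genes were picked in the same way. Pde10a, which hydrolyses cyclic AMP and cyclic GMP, had 5.15 and 4.21 TPM in DBA and 0.53 and 0.40 TPM in c-Kit samples (-1.95 ± 0.22, adjusted p = 0.00062). Pde4d, a cyclic AMP-specific enzyme, had 15.8 and 17.9 against 6.12 and 4.69 TPM (-1.48 ± 0.16, adjusted p = 0.00055). Both were picked in that way too, so their lack of overlap is no added result. The 6 proximal tubule markers summed to 3011 to 3110.3 TPM in DBA and 1394 to 1557 TPM in c-Kit samples, with 5 of 6 called, and the leukocyte markers given above were also higher in DBA. Their part in these differences was not tested.

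Smaller differences between c-Kit and DBA samples kept their sign but lost their calls when a sample was left out. Pde4a (0.63) and Pde9a (0.41) were higher in c-Kit, and Pde7b (-0.71), Pde2a (-0.69) and Pde4b (-0.58) higher in DBA. Without DBA sample 1 all 5 calls ended, at -0.75 for Pde2a (adjusted p = 0.063), 0.61 for Pde4a (0.12), -0.60 for Pde4b (0.12), -0.51 for Pde7b (0.20) and 0.47 for Pde9a (0.061). Without DBA sample 2 they ended as well, at -0.63 for Pde2a (adjusted p = 0.092), 0.64 for Pde4a (0.12), -0.57 for Pde4b (0.15), -0.91 for Pde7b (0.063) and 0.36 for Pde9a (0.11). Leaving out c-Kit sample 2 ended the calls of Pde4a (0.47, adjusted p = 0.058), Pde7b (-0.64, adjusted p = 0.11) and Pde9a (0.35, adjusted p = 0.063), and leaving out c-Kit sample 1 that of Pde7b (-0.77, adjusted p = 0.0697). Pde1b (0.53), Pde3a (-0.52) and Pde8a (0.23) were not called, and without c-Kit sample 2 the Pde1b difference was 1.05 and called (adjusted p = 0.0397). With no filter on low genes Pde4a, Pde4b and Pde7b lost their calls (adjusted p from 0.056 to 0.11). After quantile normalization Pde4b was at -0.41 (adjusted p = 0.063) and Pde7b at -0.44 (adjusted p = 0.13), without a call, while Pde8a was called at 0.35 (adjusted p = 0.014). Pde5a and Pde11a did not reach the filter, and with no filter Pde5a was called higher in DBA, at -0.41 (adjusted p = 0.031).

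GFP-positive samples were higher for phosphodiesterases of both groups. Pde1c had 52.6 and 66.9 CPM in GFP-positive and 6.51 and 9.48 CPM in GFP-negative samples (2.90 ± 0.27, adjusted p = 0.00011). Pde8b had 38.4 and 59.3 against 9.39 and 5.97 CPM (2.67 ± 0.32, adjusted p = 0.00039). Pde3b had 108.9 and 109.95 against 18.2 and 18.0 CPM (2.60 ± 0.18, adjusted p = 4.7e-05). These are genes of the DBA side, and Pde1a, a gene of the c-Kit side, stood with them at 519 and 506 against 109.6 and 128 CPM (2.11 ± 0.18, adjusted p = 8.8e-05). Of the remaining phosphodiesterases, Pde10a (2.00), Pde1b (1.96), Pde7b (1.39), Pde4a (1.22) and Pde7a (0.91) were also called higher in GFP-positive samples. Pde2a, stimulated by cyclic GMP, was lower in GFP-positive samples, at 5.32 and 4.35 against 31.2 and 16.0 CPM (-2.29 ± 0.36, adjusted p = 0.0018). Pde4d was also lower, at 34.4 and 23.0 against 69.0 and 106.5 CPM (-1.61 ± 0.27, adjusted p = 0.0025). The principal markers given above were higher in GFP-positive samples together with Pde1c, Pde8b and Pde3b. The leukocyte and endothelial markers, and the 6 proximal tubule markers (15419 to 15980 against 1838 to 2922 CPM), were lower together with Pde2a and Pde4d. Their part in these differences was not tested.

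Not every call in the GFP comparison held without each sample. Pde10a lost its call without GFP-negative sample 2 (1.38, adjusted p = 0.051) and without GFP-positive sample 1 (1.61, adjusted p = 0.17), and was 3.15 without GFP-negative sample 1. Pde4a lost its call without GFP-positive sample 2 (0.90, adjusted p = 0.11). On RPKM values Pde1a, Pde3b and Pde8b kept the call. Pde1b (2.37), Pde1c (2.26), Pde7b (1.36), Pde4a (1.08), Pde7a (0.66) and Pde2a (-0.99) lost it there, at adjusted p from 0.074 to 0.41, and Pde4d could not be tested because 2 RPKM rows carry its symbol. The 7 phosphodiesterases without a call were Pde3a, Pde4b, Pde4c, Pde5a, Pde8a, Pde9a and Pde11a. Of these, Pde4b (0.59, adjusted p = 0.026) and Pde8a (0.50, adjusted p = 0.048) were called with the replicate number as a block. Pde4b was also called without GFP-negative sample 1 (1.05, adjusted p = 0.036) and without GFP-positive sample 2 (1.07, adjusted p = 0.030).

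**Figure D4:**
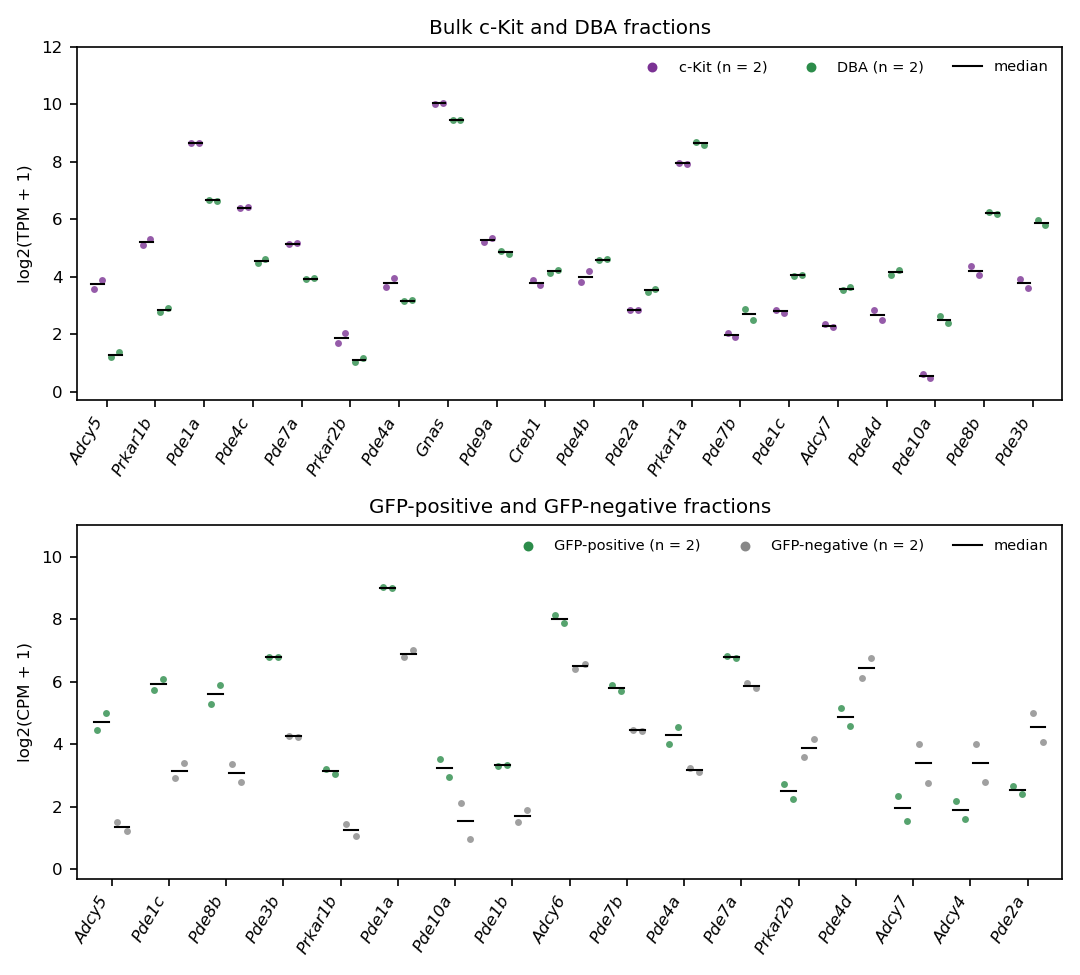
Levels of the called cyclic AMP genes in each bulk sample: log2(TPM + 1) in c-Kit and DBA samples (upper panel, 20 genes) and log2(CPM + 1) in GFP-positive and GFP-negative samples (lower panel, 17 genes), with 2 samples a group and bars at the medians. Genes run from the largest positive to the largest negative difference, from Adcy5 to Pde3b above and from Adcy5 to Pde2a below.

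In single cells the phosphodiesterases were found at different shares in the types, described here without a test. Pde1a was detected in 60 of 87 type A (69.0%, 58.1% to 78.5%), 18 of 23 type B (78.3%, 56.3% to 92.5%) and 29 of 74 principal cells (39.2%, 28.0% to 51.2%), with means of 286, 464 and 83.3 TPM. Pde3b was detected in 44 of 74 principal cells (59.5%, 47.4% to 70.7%) against 10 of 87 type A (11.5%, 5.65% to 20.1%) and 3 of 23 type B cells, with means of 45.3, 3.94 and 12.8 TPM. Pde4d was detected in 45 of 74 principal cells (60.8%, 48.8% to 72.0%) and 11 of 19 proximal tubule cells (57.9%) against 13 of 87 type A cells (14.9%, 8.20% to 24.2%). Pde8b was detected in 39.2% of principal and 16.1% of type A cells (means 82.9 and 11.9 TPM) and Pde1c in 28.4% and 11.5% (means 62.9 and 10.8 TPM). At a level of 0.1 TPM, Pde8b was found in 38 of 74 principal and 44 of 87 type A cells, so its order rests on the detection level, and its medians were 0.11 and 0.12 TPM. Pde4c was detected in 21.8% of type A and 9.46% of principal cells (means 33.5 and 5.28 TPM), and Pde8a in 29.9% and 14.9% (means 17.7 and 9.90 TPM). Pde4b was found most often in non-epithelial cells, in 14 of 32 (43.8%), with a mean of 138 TPM against 4.93 to 20.9 TPM in the other types. The medians over cells were mostly near 0, and among epithelial types Pde1a was at 413 TPM in type B, 17.7 TPM in type A and 0.46 TPM in principal cells.

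Members below 25% of cells in every type included Pde7b, at 24.3% of principal cells, Pde7a, at 18.4% of type A cells, and Pde10a, at 14.9% of principal cells and in 1 type A and 1 non-epithelial cell. Pde1b was detected in 1 cell of all 235, a non-epithelial cell, while every cTAL tubule held it at 0.40 TPM or more. Pde11a had a mean of 29.5 TPM in principal cells, of which 1 cell at 2182 TPM held nearly all. In all, 17 of the 37 genes were detected in at least 25% of the cells of a type, 18 were detected more rarely and 2 in no cell.

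Each of these 17 genes is given here in the order type A, type B, principal, proximal tubule and non-epithelial cells, with 87, 23, 74, 19 and 32 cells. Gnas had means of 162, 332, 137, 99.5 and 112 TPM, medians of 50.3, 275, 52.5, 23.0 and 12.0 TPM and shares of 80.5, 95.7, 81.1, 84.2 and 65.6%. Prkar1a had means of 93.5, 154, 237, 140.5 and 148 TPM, medians of 3.79, 85.5, 119, 23.5 and 0.6 TPM and shares of 62.1, 87.0, 91.9, 84.2 and 46.9%. These were the genes with a median above 1 TPM in 4 or more types. Pde1a had means of 286, 464, 83.3, 114 and 29.4 TPM, medians of 17.7, 413, 0.46, 1.78 and 0.74 TPM and shares of 69.0, 78.3, 39.2, 63.2 and 37.5%. Pde4d had means of 6.69, 34.6, 77.0, 61.0 and 30.2 TPM, medians of 0.04, 0.11, 3.83, 1.84 and 0.055 TPM and shares of 14.9, 17.4, 60.8, 57.9 and 15.6%. Pde1a stood highest in type B and Pde4d in principal cells by mean. Pde3b had means of 3.94, 12.8, 45.3, 14.7 and 12.1 TPM, medians of 0.03, 0, 5.73, 0.09 and 0.075 TPM and shares of 11.5, 13.0, 59.5, 15.8 and 34.4%. Pde8b had means of 11.9, 1.19, 82.9, 4.66 and 20.7 TPM, medians of 0.12, 0, 0.11, 0.03 and 0.01 TPM and shares of 16.1, 8.70, 39.2, 10.5 and 12.5%. Pde1c had means of 10.8, 0.42, 62.9, 13.3 and 6.40 TPM, medians of 0.03, 0, 0.09, 0 and 0 TPM and shares of 11.5, 4.35, 28.4, 15.8 and 6.25%. All 3 had their highest mean, and their highest share at 1 TPM, in principal cells. Pde4c had means of 33.5, 11.4, 5.28, 6.60 and 0.794 TPM, medians of 0.06, 0.03, 0.01, 0.06 and 0.045 TPM and shares of 21.8, 17.4, 9.46, 26.3 and 6.25%. Pde8a had means of 17.7, 4.60, 9.90, 5.29 and 9.67 TPM, medians of 0.08, 0.03, 0.045, 0.03 and 0.02 TPM and shares of 29.9, 17.4, 14.9, 26.3 and 15.6%. Their means were highest in type A cells, while both were detected in 26.3% of proximal tubule cells.

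Pde4b had means of 20.9, 16.6, 14.8, 4.93 and 138 TPM, medians of 0.03, 0.03, 0, 0 and 0.475 TPM and shares of 12.6, 21.7, 13.5, 21.1 and 43.8%. Adcy7 had means of 1.04, 0.00087, 4.48, 0.01 and 18.4 TPM, medians of 0, 0, 0, 0 and 0.195 TPM and shares of 2.30, 0, 2.70, 0 and 43.8%. Adcy6 had means of 8.69, 2.62, 12.0, 1.05 and 1.56 TPM, medians of 0.04, 0.02, 0.09, 0.03 and 0.01 TPM and shares of 26.4, 8.70, 25.7, 15.8 and 9.38%. Pde4b and Adcy7 were highest in non-epithelial cells, where 1 cell held 75.6% of the summed Pde4b level. Prkaca had means of 42.1, 10.1, 32.3, 19.8 and 28.8 TPM, medians of 0.24, 0, 0.155, 1.88 and 0.3 TPM and shares of 44.8, 21.7, 44.6, 52.6 and 43.8%. Prkacb had means of 10.1, 7.10, 51.0, 2.97 and 36.4 TPM, medians of 0.05, 0.06, 0.49, 0.03 and 0.195 TPM and shares of 27.6, 26.1, 44.6, 21.1 and 43.8%. Prkar2a had means of 12.7, 8.86, 26.1, 4.60 and 5.06 TPM, medians of 0.01, 1.00, 0.06, 0 and 0 TPM and shares of 14.9, 52.2, 33.8, 21.1 and 21.9%. For Prkacb and Prkar2a in principal cells, 1 cell held 53.0% and 57.2% of the sum. Creb1 had means of 27.9, 13.9, 12.3, 39.9 and 4.18 TPM, medians of 0.05, 0.01, 0.045, 0.04 and 0.03 TPM and shares of 16.1, 21.7, 21.6, 36.8 and 15.6%. Crem had means of 26.9, 35.5, 51.8, 15.1 and 55.8 TPM, medians of 0.05, 0.09, 0, 0 and 0 TPM and shares of 14.9, 30.4, 27.0, 26.3 and 15.6%. Neither transcription factor had a median above 0.09 TPM in any type.

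**Figure D5:**
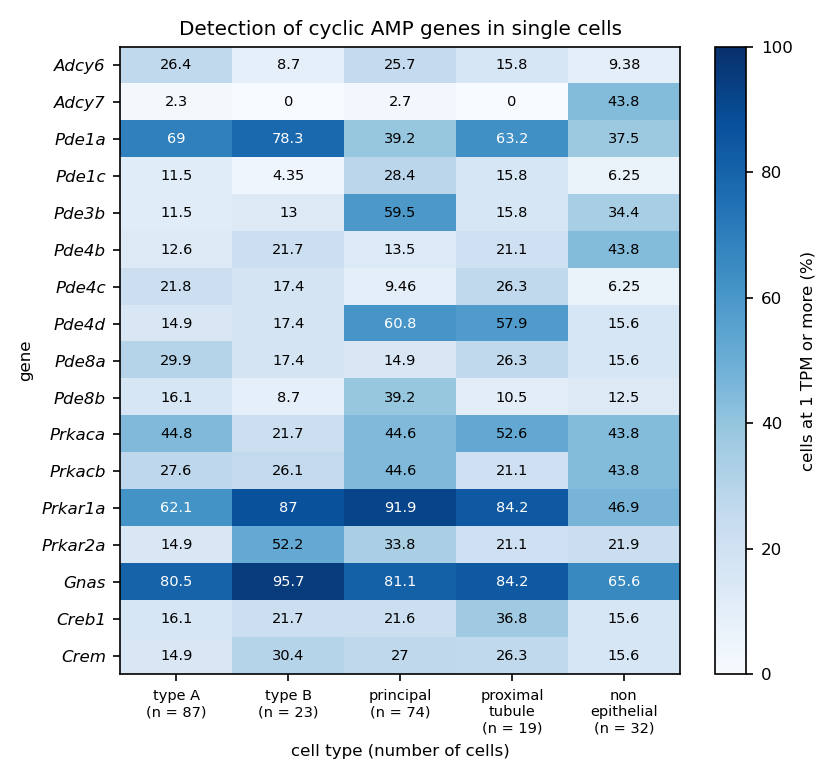
Share of cells at 1 TPM or more for the 17 genes that reached 25% in any type: rows are genes, columns the 5 cell types with the number of cells, and colour and printed value give the share in percent. Gnas is found in most cells of all 5 types and Prkar1a in most cells of 4, Pde3b and Pde8b peak in principal cells and Adcy7 in non-epithelial cells.

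Protein kinase A is held inactive by its regulatory subunits until cyclic AMP binds them. Prkar1a was the main regulatory transcript throughout, at 86.1% to 95.1% of the summed regulatory level in CCD, 87.0% to 99.2% in cTAL, 77.9% to 78.4% in c-Kit and 91.5% to 92.7% in DBA samples. Its level of 305 ± 47 TPM in CCD (SD, n = 11) and 236 ± 60 TPM in cTAL (n = 8) gave a difference of 0.39 ± 0.15, which did not pass the test (adjusted p = 0.066). Without tubule m2_CCD2 the difference was 0.45 and passed the test (adjusted p = 0.019). That tubule had the lowest Prkar1a level in CCD, at 210 TPM, and was left out after seeing the data. Prkar1a was higher in DBA samples, at 417 and 382 against 251 and 242 TPM in c-Kit samples (-0.69 ± 0.07, adjusted p = 0.00031). In GFP-positive samples it had 269 and 289 CPM against 228 and 166 CPM, and the difference of 0.50 ± 0.20 did not pass the test (adjusted p = 0.084), though without GFP-negative sample 1 it was 0.74 and did (adjusted p = 0.047). It was detected in 68 of 74 principal cells (91.9%, 83.2% to 97.0%) and 54 of 87 type A cells (62.1%, 51.0% to 72.3%), with medians of 119 and 3.79 TPM.

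Prkar1a was the 1 gene of the 30 with a promoter window that held the full palindromic cyclic AMP response element TGACGTCA, a motif bound by CREB proteins, which was in 1.79% of all 32851 windows. The window at chr11:109650699-109650998 (plus strand, GRCm38.p6) is shown with the element in capitals.
Prkar1a: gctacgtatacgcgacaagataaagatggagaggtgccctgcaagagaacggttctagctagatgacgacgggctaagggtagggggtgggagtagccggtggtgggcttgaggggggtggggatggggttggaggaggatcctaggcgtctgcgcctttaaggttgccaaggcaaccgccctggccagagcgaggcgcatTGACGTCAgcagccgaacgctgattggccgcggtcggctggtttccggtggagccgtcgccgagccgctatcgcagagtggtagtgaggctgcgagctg
The element lay in 2 of the 6 windows of this gene. The core TGACG, which the full element contains, was in 18 of 70 windows of the cyclic AMP genes (25.7%) and in 20.8% of all windows, both strands counted.

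Prkar1b moved against Prkar1a in the bulk TPM comparison. It had 33.6 and 39.1 TPM in c-Kit and 5.81 and 6.44 TPM in DBA samples, a difference of 2.39 ± 0.13 (adjusted p = 2.8e-05). GFP-positive samples were also higher, at 8.28 and 7.36 against 1.76 and 1.11 CPM (2.44 ± 0.44, adjusted p = 0.0035), while on RPKM values the difference was 1.75 with an adjusted p of 0.21. In tubules Prkar1b (chr5:139017306-139150001, minus strand) was higher in CCD, at 0.00, 9.65 and 25.9 TPM against 0.00, 0.015 and 8.33 TPM in cTAL (2.28 ± 0.66, adjusted p = 0.017). The segments overlapped, since 2 CCD tubules were at or below 0.03 TPM and 2 cTAL tubules were at 1.68 and 8.33 TPM. With no filter on low genes the adjusted p was 0.051. Prkar1b was detected in 7 of 87 type A cells (8.05%) and 3 of 74 principal cells.

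Prkar2b had 2.22 and 3.08 TPM in c-Kit and 1.04 and 1.23 TPM in DBA samples, a difference of 0.77 ± 0.23 (adjusted p = 0.036). The call was lost with no filter on low genes (adjusted p = 0.0795) and without c-Kit sample 2 (0.59, adjusted p = 0.11), DBA sample 1 (0.70, adjusted p = 0.16) or DBA sample 2 (0.83, adjusted p = 0.11). In the GFP comparison Prkar2b was on the GFP-negative side, at 5.70 and 3.72 CPM in GFP-positive and 11.0 and 17.0 CPM in GFP-negative samples (-1.57 ± 0.36, adjusted p = 0.011). That call was lost without GFP-negative sample 2 (-1.22, adjusted p = 0.053) and without GFP-positive sample 2 (-1.29, adjusted p = 0.059), and the RPKM difference was -1.30 (adjusted p = 0.36). The leukocyte, endothelial and proximal tubule markers were lower in GFP-positive samples as well, and their part was not tested. The gene thus had opposite signs in the c-Kit and GFP comparisons. Prkar2a was called in none of the 3 comparisons, with differences of 0.34, 0.13 and 0.26.

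The catalytic subunits Prkaca and Prkacb, which phosphorylate the targets, were called in no comparison. Prkaca measured 40.6 ± 16.1 TPM in CCD (SD, n = 11) and 45.2 ± 26.3 TPM in cTAL (n = 8), a difference of -0.26 ± 0.50 (adjusted p = 0.78). Prkacb measured 33.3 ± 13.6 and 31.3 ± 21.5 TPM (0.41 ± 0.48, adjusted p = 0.61). Tubules of both segments overlapped widely for both genes. In c-Kit and DBA samples Prkaca had 55.6 to 55.8 and 62.0 to 65.5 TPM (adjusted p = 0.069) and Prkacb 37.4 to 37.7 and 34.8 to 36.5 TPM (adjusted p = 0.49). Prkaca was detected in 21.7% to 52.6% and Prkacb in 21.1% to 44.6% of the cells of each type.

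Creb1 and Crem, transcription factors that protein kinase A phosphorylates, did not differ beyond the spread in tubules. Creb1 measured 11.4 ± 8.1 TPM in CCD (SD, n = 11) and 8.63 ± 6.57 TPM in cTAL (n = 8), a difference of 0.44 ± 0.56 (adjusted p = 0.65). Crem measured 49.4 ± 24.1 and 26.3 ± 15.6 TPM (0.93 ± 0.72, adjusted p = 0.43). The CCD tubule m2_CCD2 had 0.13 TPM and the cTAL tubule m3_cTAL1 had 0.26 TPM of Crem, below all others. Without m2_CCD2 the Crem difference was 1.44 and passed the test (adjusted p = 0.045), and without the 3 tubules that held fewer than 9500 genes it was 0.81 (adjusted p = 0.039). Between c-Kit and DBA samples Creb1 was called higher in DBA, at 16.5 and 18.0 against 13.8 and 12.0 TPM (-0.40 ± 0.12, adjusted p = 0.039). That call was lost without c-Kit sample 2 (-0.30, adjusted p = 0.12), DBA sample 1 (-0.45, adjusted p = 0.14) or DBA sample 2 (-0.34, adjusted p = 0.24), with no filter on low genes (adjusted p = 0.083), with no variance trend (adjusted p = 0.052) and after quantile normalization (-0.20, adjusted p = 0.23). Crem was not called there. Neither gene was called in the GFP comparison, with Crem at 0.53 ± 0.25 (adjusted p = 0.14). Without GFP-negative sample 1 the Crem difference was 0.88 and was called (adjusted p = 0.032).

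Set side by side, several genes had 1 pattern over the separately normalized tables. Adcy5 and Prkar1b were higher in CCD than cTAL, in c-Kit than DBA and in GFP-positive than GFP-negative samples. Pde8b, Pde3b and Pde1c were higher in CCD and in GFP-positive samples but also in DBA samples, and in single cells their means were highest in principal cells (82.9, 45.3 and 62.9 TPM). Pde1a was higher in cTAL and, within the sorted fractions, in c-Kit and GFP-positive samples, and in single cells its mean was highest in type B cells (464 TPM). Pde4c was higher in cTAL and c-Kit samples and was not called in the GFP comparison, at 78.2 and 52.7 against 64.6 and 80.0 CPM (-0.14 ± 0.23, adjusted p = 0.67).

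The surrounding pathway was described by 59 further genes in 8 lists (receptors coupled to Gs or Gi, other G alpha subunits, inhibitors and anchors of protein kinase A, Epac and Rap, CREB partners, and cyclic AMP export and binding). In tubules 45 were tested, 15 were higher in CCD and 5 lower, where 13.2% and 5.5% of all tested genes were. Among the most different were the vasopressin V2 receptor Avpr2 (4.59), the kinase inhibitor Pkib (4.22) and the anchoring protein Akap2 (4.1) on the CCD side. On the cTAL side they were the parathyroid hormone receptor Pth1r (-4.91), the Gi-coupled prostaglandin receptor Ptger3 (-4.65), the calcium-sensing receptor Casr (-2.79) and the glucagon receptor Gcgr (-2.44). Avpr2 had a median of 1201 TPM in CCD and 59.8 TPM in cTAL.

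Between c-Kit and DBA samples 47 were tested, 12 were higher and 19 lower in c-Kit, where 16.1% and 28.1% of all tested genes were. The receptors Calcr for calcitonin (4.39), Sctr for secretin (3.73), Gcgr (3.49) and Ptger3 (2.83) led the c-Kit side. Avpr2 (-2.96), Akap12 (-2.63), the prostaglandin receptor Ptger4 (-1.85) and the alpha-adrenergic receptor Adra2a (-1.72) led the DBA side. In the GFP comparison 52 were tested, 16 were higher and 9 lower in GFP-positive samples, where 15.2% and 17.3% of all tested genes were, so that the 9 lower genes are a share near that of all genes. Sctr (5.31), Calcr (5.03), Pkib (4.23) and the G alpha subunit gene Gnaz (2.82) led the GFP-positive side. Adra2b (-3.40), Adora2a (-2.57), Calcrl (-2.11) and the salt-inducible kinase Sik1 (-1.22) led the other. Sctr had 3.01 to 3.57 CPM against 0.047 to 0.12 CPM and Adora2a 0.24 to 0.53 against 1.26 to 3.35 CPM, so both rest on low counts, and Adora2a lost its call without GFP-negative sample 1 (-1.70, adjusted p = 0.29), GFP-positive sample 1 (-2.15, adjusted p = 0.19) or GFP-positive sample 2 (-3.23, adjusted p = 0.076). On RPKM values Calcr (2.65, adjusted p = 0.13) and Sik1 (-1.08, adjusted p = 0.085) lost their calls.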

How the data were processed

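No reads were processed here. The deposited TPM tables, 1 each for tubules, for the c-Kit and DBA fractions and for single cells, hold values that the authors scaled within each sample. The submitters' processing notes name STAR 2.5.1b, RSEM 1.2.31, Seurat and the build GRCm38.p5 without roles. The GFP fractions have deposited read counts and RPKM values on mm10, per the file headers. Rows that name no gene (no feature or ambiguous) made up 66.7% to 72.8% of the listed reads and were left out, leaving 35530885 to 40815091 reads in genes per sample. TPM keeps no depth. The number of per-sample columns not used was 0.

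The 37 genes and all lists were chosen with earlier results of these data known. Tubule rows were named by the symbol that the single-cell table pairs with the identifier, since Pde2a carries another symbol there. Samples were grouped by their titles. TPM values were compared as log2(TPM + 1) with limma 3.58.1 (variance trend, mean of at least 1 TPM), and counts with edgeR 4.0.16 (TMM, filterByExpr, quasi-likelihood test), in R 4.3.3. P-values were adjusted over all tested genes by the Benjamini-Hochberg method and called under 0.05. On simulated data the fits recovered 19% of 2-fold changes in tubules, 44% between c-Kit and DBA and 2% between the GFP fractions. For 4-fold changes the shares were 57%, 90% and 80.5%. Each simulation changed 200 genes, fewer than were called in the data, and the GFP simulation used a common dispersion for all genes. The shares belong to those settings, and recovery in the data may differ. A gene without a call may therefore still differ. Single cells were described by mean, median and the share at 1 TPM or more with exact 95% intervals (scipy 1.17.1). Every called gene of the 37 is named, with sample values for up to 6 a direction whose groups do not overlap. Of the 59 pathway genes, up to 4 a direction are named, except 1 that is not reported here. Genes detected in at least 25% of the cells of a type are named in single cells.

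The headers of the RPKM table name a first and a second experiment, and count columns 1 and 2 follow them (correlations of 0.39 and 0.36 across genes). Same-numbered GFP samples deviated together (correlation 0.18 across genes), so the numbers were taken to pair them. The GFP results are nevertheless from the fit without the pairing, as designed, and the fit with the replicate number as a block is an alternative. DESeq2 1.42.0, RLE size factors and limma on the authors' RPKM values were alternatives, as were other filters, pseudocounts, normalizations and leaving out samples. Positions are from GENCODE on GRCm38 and promoter windows from RefSeq on GRCm38.p6.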

Additional observations from a re-analysis of the deposited data

Results flagged for a closer look

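Among the 8 cTAL tubules, 3 of 25 tested genes had a tubule whose log2 level stood farther from the others than Dixon's 95% limit allows. Chance gives about 1 in 20 for normally spread values. Pde3b and Prkar1b had cTAL medians near the floor, at 0.045 and 0.015 TPM, so that rate need not hold for them. Tubule m7_cTAL2 had 1.79 TPM of Pde3b and 8.33 TPM of Prkar1b, in each case the highest of the cTAL tubules. Tubule m3_cTAL1, which held the fewest genes of the cTAL tubules (8094), had the lowest Crem level at 0.26 TPM.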

How the results depend on the processing

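Of the 9 genes called between segments, 7 kept direction and call in each of the 11 alternatives that tested them. Of the 20 called between c-Kit and DBA samples 13 did so over 11 alternatives, and of the 17 called in the GFP comparison 5 over 10, and no called gene changed sign. In tubules, a mean of at least 10 TPM left fewer genes to test, with 5 called, 3 higher and 2 lower. At that filter 1320 of 7955 genes in all were higher and 613 lower. Over the tubule alternatives, tested genes of the 37 without a call gained a call in 8 instances, not all of them named here. Sample weights called 4401 genes. The alternatives without m2_CCD2 or without the 3 tubules under 9500 genes were chosen after seeing the data, like those by m number. Without m2_CCD2, 8 of the 37 genes were higher in CCD, beside 2250 of 13444 genes in all. Without the 3 tubules, 8 of the 37 genes were higher as well, beside 2119 of 13514. The block by m number was run because the columns carry no title numbers. It gave 9 calls among the 37 genes, beside 2588 of 13520 genes in all. Signs of genes without a call turned for Pde2a (-0.22) and Prkar2a (-0.0593) after quantile normalization, Pde8a (0.0729) and Prkaca (0.22) with sample weights, Pde2a (-0.0034) and Gnas (0.0015) with the replicate block by m number, Prkaca (0.13) without m2_CCD2, and Pde4d (-0.15), Prkaca (0.12) and Gnas (9.1e-05) without the 3 tubules. Between c-Kit and DBA samples, the filter at 10 TPM left 7 of the 37 genes lower, beside 2846 of 9212 genes in all. Leaving out 1 sample gave 13 to 19 calls, 7 to 10 of them lower, and 3458 to 5701 genes in all. The number 1 and 2 samples did not deviate together (correlation 0.03). The replicate block gave 19 calls, without Creb1 (adjusted p = 0.055), beside 6271 of 14341 genes in all. Signs turned for Adcy3 (0.0115), Adcy6 (0.0495) and Adcy9 (0.0955) after quantile normalization and, over the 4 left-out samples, for Adcy3 (-0.38 to 0.0112), Adcy9 (-0.26 to 0.0459), Prkar2a (-0.0242 to 0.29) and Crem (-0.000299 to 0.26). In the GFP comparison, limma on RPKM called 4 of the 37 genes, 4 higher and 0 lower, and 1634 genes in all, and turned Pde8a (-0.0165). The replicate block gave 20 calls and 5897 genes in all. Leaving out 1 sample gave 2 to 5 genes lower and turned Adcy9 (-0.38 to 0.0035), Adcy10 (-1.19 to 0.65), Pde3a (-0.45 to 0.22), Pde4b (-0.00093 to 1.07), Pde4c (-0.48 to 0.12) and Pde9a (-0.80 to 0.23). Apart from the filter, the cause was not tested. In single cells, the genes detected in at least 25% of cells numbered 7 in type A (4 at 5 TPM, 18 at 0.1 TPM), 6 in type B (13 at 0.1 TPM), 9 in proximal tubule (16 at 0.1 TPM) and 8 in non-epithelial cells (16 at 0.1 TPM). By the median over cells 4 genes in place of 2 were highest in type B. The depth behind the TPM values is unknown.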
